A study of Sus scrofa with 6 samples.

Results

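Cells with open epithelial genes were examined in single-cell ATAC-seq libraries of pig somites and myotomes. In this assay the Tn5 transposase cuts open chromatin, and the cuts are counted per peak and per cell barcode. A barcode was a member when it had 2000 to 30000 counts, when at least 4 of the windows of 10 marker genes (gene body plus 2 kb upstream, Sscrofa11.1) held a count, and when its summed marker counts reached at least 3 times the mean marker share over all 6 libraries times its own total. The markers were EPCAM, KRT8, KRT18, KRT19, CDH1, GRHL2, ESRP1, CLDN4, CLDN7 and ELF3. The rule was met by 1399 of 58809 kept barcodes (2.38%), and the other kept barcodes of the same library are called the rest. Barcodes are called cells below, with no doublet caller behind that word.

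Embryos were either Tibetan purebreds (ZZ) or crosses of Duroc with Tibetan pigs (DZ), with 1 library for each breed at embryonic days 18, 21 and 28 (E18, E21 and E28). E18 and E21 libraries were made from somites and E28 libraries from myotomes, so stage and tissue cannot be told apart at E28. For each library, 5 embryos from 1 sow were combined, and no agent or transgene was involved. Members and rest were therefore compared within libraries, and p-values measure only the spread of that difference between these 6 libraries.

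Epithelial cells form sheets that are sealed by tight junctions and held together by E-cadherin, the product of CDH1, and by desmosomes anchored to keratin filaments. Grainyhead, ELF, OVOL and p63 transcription factors help to maintain the epithelial state. ZEB and SNAIL factors repress many epithelial genes when an epithelium turns into mesenchyme. The somite itself starts as an epithelial ball that loses this form in its ventral part. Surface ectoderm, gut endoderm and nephric duct are epithelia that lie close to the somites.

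Kept cells numbered 9286 to 11243 per library, and peaks had been called by the authors separately in each library, with 131975 to 217138 peaks. Members had somewhat more counts per cell than the rest, with library medians of 10953.5 to 12841 against 8069 to 11361. The share of counts in peaks within 2 kb upstream of genes was close in both, with medians of 40.5 to 46.7% in members and 39.4 to 44.2% in the rest. Members were above the rest in each library, by little in E18 ZZ (40.7 against 40.1%) and more in E28 ZZ (46.7 against 44.2%). Barcode letters that occurred in 2 or more libraries numbered 1921 of 56851 (3.38%), and no barcode was a member in 2 libraries. The same kind of rule for at least 1 of 9 lists of other cell types was met by 0 to 12.5% of members by library and 3.44 to 9.82% of the rest. Members were below the rest in both E18 libraries (8.49 against 9.82% in ZZ, 8.58 against 8.99% in DZ) and in E28 ZZ, and above it in the other 3. What part doublets have in the members was not tested.

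The marker values chose the members and are given as a description. Members held a median of 14 marker counts (range 7 to 43), against a median of 2 in the rest. Of the members, 580 had counts in 4 marker windows, 410 in 5 and 409 in 6 or more. Their marker share was 3.0007 to 13.6 times the mean share, with a median of 3.71, and 540 members lay between 3 and 3.5 times. Just outside the rule, 790 cells with at least 4 marker windows lay between 2.5 and 3 times, the highest at 2.99974, and 573 cells past the share had 3 marker windows. The threshold thus cut through a continuous range, with no gap on either side.

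Single markers were open in part of the members. CDH1 had a count in 65.8% of members and 21.8% of the rest, and CLDN4, a claudin of the tight junction, in 60.5 and 16.1%. KRT8 and KRT18, which pair in the filaments of simple epithelia, had a count in 56.5 and 46.5% of members, against 9.96 and 7.87% of the rest. EPCAM, an adhesion molecule of epithelia, had a count least often, in 28.5% of members and 5.58% of the rest. Called peaks covered 979 to 2067 bp of its window by library, against 7788 to 17458 bp for CDH1. The order of the markers therefore also carries how much of each window was called. The remaining 5 markers lay between 34.1% (KRT19) and 58.8% (GRHL2) of members.

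Most members came from E18. Their share of kept cells was 6.18% in E18 ZZ (695 cells, exact 95% binomial interval 5.74 to 6.64%), 5.09% in E18 DZ (513 cells), 1.01% in E21 ZZ (94 cells), 0.514% in E21 DZ (48 cells), 0.298% in E28 ZZ (28 cells) and 0.222% in E28 DZ (21 cells, interval 0.138 to 0.339%). Intervals cover counting error only. The share was lower at each later stage in both breeds, and ZZ lay above DZ at each stage, which is a description that was not tested. Values are given as CPM, which are counts scaled to the same total in every profile. Over all kept cells the marker windows of ZZ held 430, 267 and 212 CPM at the successive stages, and those of DZ 411, 219 and 206 CPM. The called peaks covered less of all 10 marker windows at E28 than at E18 in both breeds. KRT18 in DZ had 4708 bp at E18 against 368 bp at E28, and KRT8 in ZZ 10458 against 1573 bp. CDH1 in ZZ had 17458 against 7788 bp and ESRP1 in DZ 4750 against 4691 bp. With 3 times the mean share of the cell's own library as the limit, members made up 1.68, 1.25 and 0.871% of the ZZ libraries and 1.46, 1.01 and 0.762% of the DZ libraries. The order of the libraries was the same on this scale, and the range from the highest to the lowest was far narrower.

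**Figure D1:**
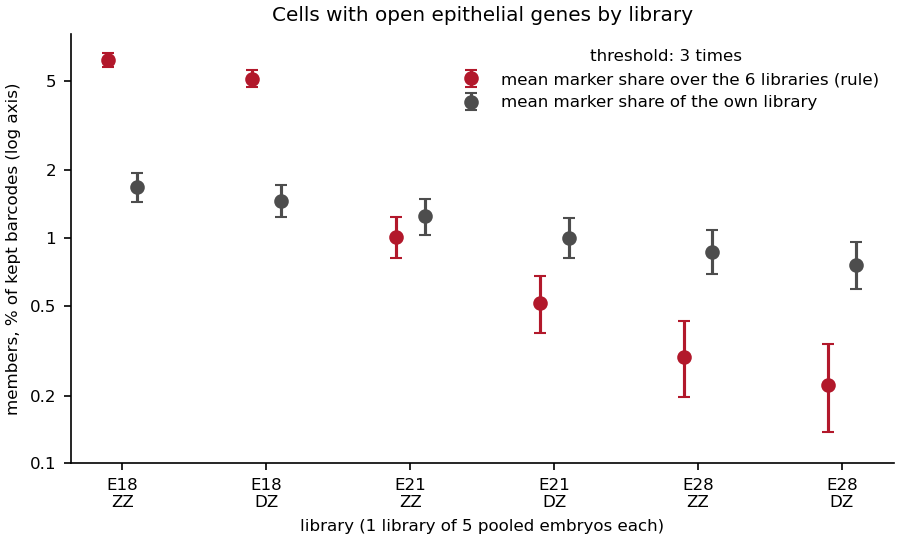
Share of kept cells that met the rule in each library (log axis, percent), with the mean marker share over all 6 libraries (red, the rule) or that of the own library (grey) as the base of the limit; bars are exact 95% binomial intervals. The red points run from 6.18 to 0.222% and the grey points from 1.68 to 0.762%.

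Epithelial genes that the rule did not use were examined next. Their lists had been drawn up with earlier results of these data known, so their counts are a description. Counts were summed per library over members and over the rest, and both profiles of each library were compared over 21725 gene windows, leaving out everything within 100 kb of a marker window. Of 70 different windows of the epithelial lists that were tested, 20 rose in members, none fell and the others did not pass. Over all windows, 159 rose (0.732%) and 119 fell (0.548%) in edgeR's quasi-likelihood test, which had the library as a block, at a Benjamini-Hochberg adjusted p under 0.05. The median log2 fold change of all windows was −0.02. Of the 159 windows that rose, 77 were higher in all 6 libraries. In a summed profile, more cells with an open window and more counts per cell cannot be told apart.

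Junction and polarity genes, which seal epithelial sheets, had a median log2 fold change of 0.42 over 24 tested windows, of which 6 rose and 22 were above 0. OCLN (occludin, a strand protein of tight junctions, chr16:47600175-47652435) reached 44.1, 40.9, 29.6, 22.2, 11.9 and 7.5 CPM in members, in the order ZZ then DZ at E18, at E21 and at E28. The rest of the same libraries had 21.5, 17.0, 10.8, 10.2, 7.04 and 5.19 CPM. Members were higher in all 6 libraries, and the level was lower at later stages in members and rest alike. Called peaks covered 5270, 3789, 2732, 3384, 1310 and 1454 bp of this window in the same order. Levels at different stages therefore also carry what was called in each library, here and in the windows below. For OCLN the log2 fold change was 1.13 ± 0.20 (SE) with an adjusted p of 0.00133. F11R (the junctional adhesion molecule A, chr4:89425101-89447889) had 43.5, 43.8, 48.2, 47.8, 53.5 and 60.0 CPM in members and 31.3, 34.3, 24.3, 22.6, 22.1 and 20.5 CPM in the rest, with a log2 fold change of 0.70 ± 0.15 and an adjusted p of 0.00573. It was thus higher in all 6 libraries, and in the rest its level was lower at later stages while in members it was not.

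The other 4 junction genes that rose were PPL (periplakin, which links desmosomes to keratin) at a log2 fold change of 0.73, PKP2 (plakophilin 2, of the desmosomal plaque) at 0.67, CGN (cingulin, on the inner face of tight junctions) at 0.49 and LLGL2 (a protein of the basolateral side) at 0.47. Not all libraries shared these: PPL, PKP2 and LLGL2 were higher in 5 libraries and CGN in 4. Members of E28 DZ had no PKP2 count, against 16.3 CPM in the rest, where a count of 0 allows up to 11.2 CPM. DSP (desmoplakin) did not pass with 0.48 and an adjusted p of 0.101, although members were higher in all 6 libraries. LSR did not pass either, at 0.37 with an adjusted p of 0.0813. CXADR, a junctional receptor, had a log2 fold change of 0.04.

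All 3 tested keratins outside the markers rose. KRT7, a keratin of simple epithelia (chr5:17553192-17570582), had 31.4, 27.6, 16.9, 15.4, 14.8 and 22.5 CPM in members against 21.2, 16.1, 6.38, 6.67, 4.09 and 5.81 CPM in the rest, in the library order above. Members were higher in all 6 libraries, with a log2 fold change of 0.96 ± 0.23 and an adjusted p of 0.0199. KRT80 was also higher in all 6 (0.75 ± 0.17, adjusted p 0.0123). KRT5, the keratin of basal cells in stratified epithelia, had the largest value (2.19 ± 0.44, adjusted p 0.00523) on few counts: 4.56, 4.77, 8.53 and 14.8 CPM in members of E18 ZZ, E18 DZ, E21 DZ and E28 ZZ, 0 in E21 ZZ and E28 DZ, and 0.239 to 1.34 CPM in the rest. KRT15 lies within 100 kb of KRT19 and was not tested.

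Among 12 epithelial transcription and splicing factors, 4 rose and all 12 were above 0, with a median of 0.43. OVOL1 (a zinc finger factor that restrains mesenchymal change, chr2:6526679-6538992) had 57.7, 41.2, 26.2, 46.1, 32.7 and 0 CPM in members and 35.6, 18.1, 11.6, 10.99, 10.5 and 8.24 CPM in the rest. Members were higher everywhere but in E28 DZ, where the 21 cells had no count, and the log2 fold change was 1.09 ± 0.19 (adjusted p 0.00162). ESRP2, which steers epithelial splicing together with ESRP1, was higher in all 6 libraries (0.61 ± 0.12, adjusted p 0.00460). TP63, the p63 gene of stratified epithelia (chr13:127115990-127347082), had 47.0, 60.3, 63.4, 37.5, 41.6 and 15.0 CPM in members and 34.8, 36.5, 24.3, 28.4, 29.8 and 33.8 CPM in the rest. Members of E28 DZ were below the rest and members of the other 5 libraries above it (0.60 ± 0.14, adjusted p 0.0187).

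Of 9 genes for epithelial surface proteases, their inhibitors and trafficking, 2 rose, with a list median of 0.43. Both code for Kunitz inhibitors of matriptase, a protease of the epithelial surface. SPINT2 (chr6:47181772-47210564) had 34.1, 28.9, 22.8, 10.2, 53.5 and 0 CPM in members and 15.8, 13.8, 5.85, 4.10, 6.24 and 4.61 CPM in the rest (1.43 ± 0.26, adjusted p 0.00224). SPINT1 was higher at E18 and E21, with 72.9, 68.1, 49.0 and 85.3 CPM against 43.1, 37.4, 24.2 and 21.0 CPM (0.93 ± 0.15 over all 6 libraries, adjusted p 0.00133). At E28 it had 14.8 and 11.2 CPM against 15.4 and 13.8 CPM. These values rest on few counts from 28 and 21 members, so no absence of a difference can be read from them. Matriptase itself, coded by ST14, had 0.41 with an adjusted p of 0.367, and the protease gene PRSS8 1.02 with an adjusted p of 0.168.

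Receptors and ligands of epithelia had a median of 0.24 over 17 windows, all above 0, and 5 rose. WNT3, a ligand of the WNT pathway (chr12:17627291-17681197), had 58.7, 57.4, 91.3, 56.3, 86.1 and 26.2 CPM in members against 45.4, 44.8, 38.2, 31.7, 22.3 and 16.7 CPM in the rest, higher in all 6 libraries (0.71 ± 0.14, adjusted p 0.00460). WNT6, a ligand of the surface ectoderm, and PDGFA, a growth factor, both rose by 0.48. WNT7B rose by 0.42 and the ephrin receptor gene EPHA2 by 0.41. Members were higher in all 6 libraries for PDGFA, WNT7B and EPHA2, and in 5 for WNT6.

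**Figure D2:**
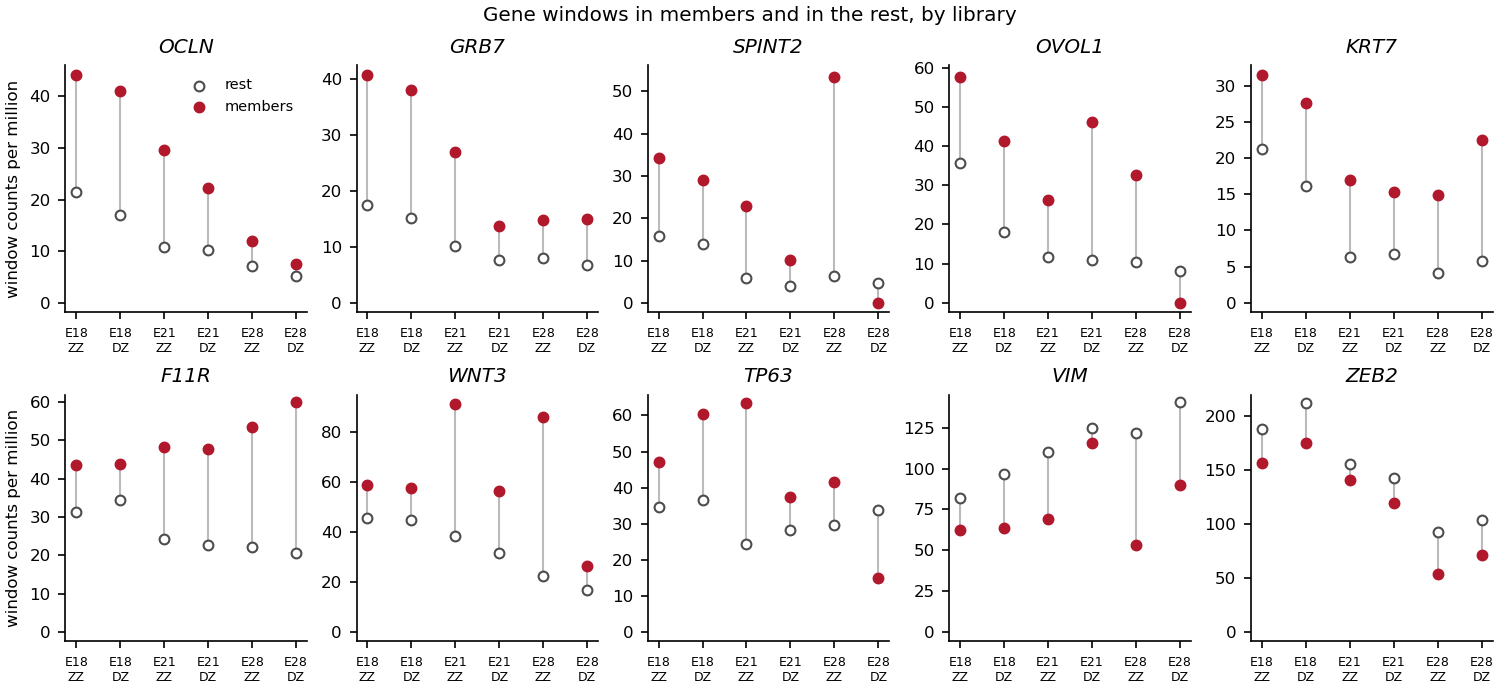
Window CPM in members (red) and in the rest (open circles) of each library for 8 windows that rose and for VIM and ZEB2, which fell; lines join both values of a library. Members lie above the rest at all 6 libraries for OCLN, GRB7, KRT7, F11R and WNT3 and below it for VIM and ZEB2; OVOL1 and SPINT2 are at 0 in the 21 members of E28 DZ.

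Of 16 windows of mesenchyme and regulators of epithelial-mesenchymal transition, 2 fell, those of VIM and ZEB2, and 14 were below 0, with a median of −0.22. VIM (vimentin, the filament protein of mesenchymal cells, chr10:43516441-43526172) had 62.2, 63.7, 69.3, 116, 53.5 and 90.0 CPM in members and 82.2, 96.5, 110, 125, 122 and 141 CPM in the rest. It was lower in all 6 libraries, with a log2 fold change of −0.57 ± 0.10 and an adjusted p of 0.00133. ZEB2, a repressor of CDH1 (chr15:7498879-7631347), had 156, 175, 140, 119, 53.5 and 71.2 CPM in members and 188, 212, 156, 142.7, 92.3 and 104 CPM in the rest, also lower in all 6 (−0.32 ± 0.09, adjusted p 0.0368). The other repressors of this class did not pass: ZEB1 had −0.11, SNAI1 −0.09, TWIST1 −0.13 and SNAI2 0.26, the last higher in all 6 libraries. Among 12 myogenic windows PAX3, the factor of muscle progenitors, fell (−0.45 ± 0.10, adjusted p 0.0119), lower in 5 libraries and at 86.2 against 79.6 CPM in E28 DZ. The myogenic median was −0.12.

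Lists for the epithelia that could lie next to a somite gave different counts. Of 10 tested surface ectoderm windows, 4 rose, among them KRT5, TP63 and WNT6, and the median was 0.44, and all 4 also belong to other epithelial lists. None of 11 nephric, 14 gut and liver, 5 mesothelial or 4 notochord windows passed, with medians of 0.07, −0.00, −0.08 and 0.10. Windows of sclerotome and cartilage, neural progenitors, neurons, neural crest, endothelium, blood and heart held no call either, and their medians ranged from −0.12 to 0.11. The only tested microRNA window, MIR205, had 1.11 with an adjusted p of 0.320. The lists had been drawn up with earlier results of these data known, so their counts describe the members and are no independent evidence.

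**Figure D3:**
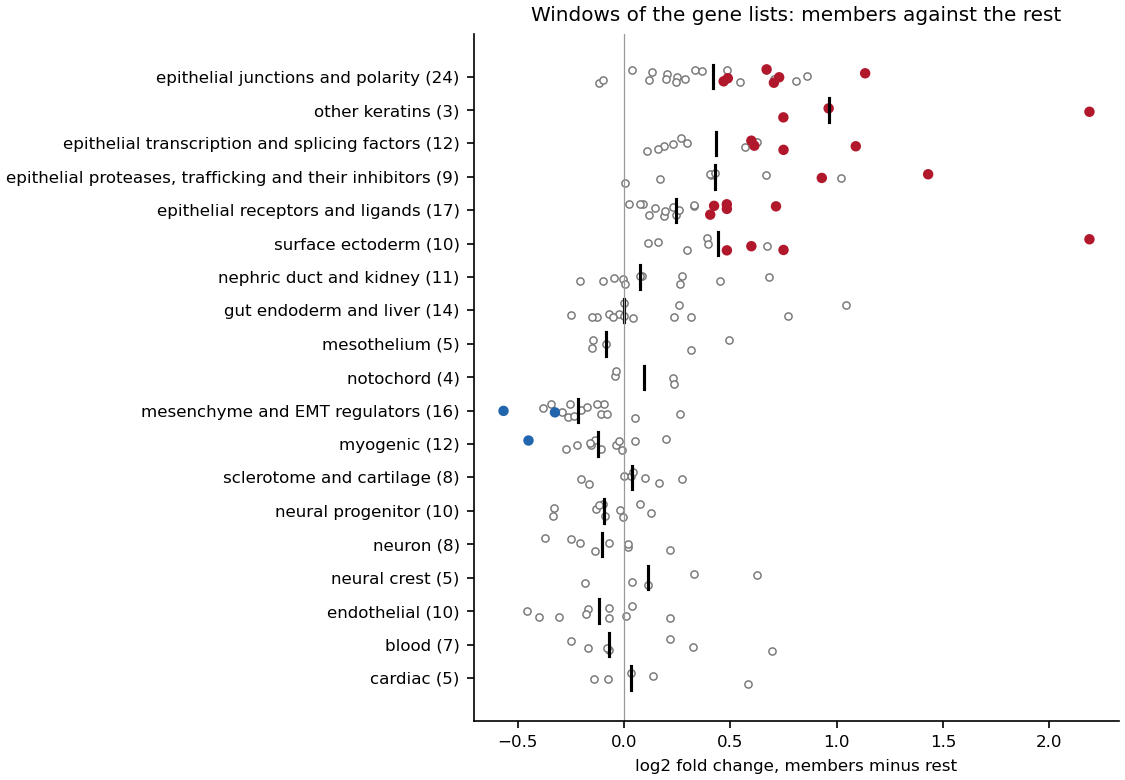
Log2 fold change of each listed gene window, members minus rest, by list, with the number of tested windows in brackets; red and blue points rose and fell (edgeR, adjusted p under 0.05), open points did not pass, and black bars are list medians. Junction, keratin, transcription factor and protease lists have medians of 0.42 to 0.96, while the mesenchyme list has −0.22.

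Over all gene windows, the largest rises that were shared by all 6 libraries again included epithelial genes. C6H1orf210 led with a log2 fold change of 1.57 ± 0.29 (adjusted p 0.00258), from 18.8, 15.0, 23.7, 20.5, 11.9 and 7.5 CPM in members against 7.67, 6.79, 5.06, 3.20, 5.13 and 3.82 CPM in the rest. Its window holds the same counts as that of LOC110261245, so the genes cannot be told apart. GRB7, an adaptor of receptor tyrosine kinases (chr12:22574579-22583386), had 40.8, 38.0, 27.0, 13.7, 14.8 and 15.0 CPM against 17.4, 15.2, 10.1, 7.61, 8.07 and 6.70 CPM (1.199 ± 0.20, adjusted p 0.00133). In both windows members lay above the rest in each library, which was a condition for being named here.

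GULO, the last enzyme of vitamin C synthesis, had 27.2, 32.0, 24.5, 23.9, 44.5 and 26.2 CPM in members and 17.9, 19.5, 7.98, 7.27, 6.39 and 9.01 CPM in the rest (1.18 ± 0.23, adjusted p 0.00444). Here the member level stayed between 23.9 and 44.5 CPM at all stages while the rest had less at E21 and E28 than at E18. Called peaks covered 5337, 5031, 2148, 2363, 1607 and 1683 bp of the GULO window in the library order above. S100A14, a calcium-binding protein of epithelia, had 36.8, 33.7, 21.97, 15.4, 11.9 and 7.5 CPM against 21.6, 24.7, 5.47, 2.95, 3.36 and 2.66 CPM (1.07 ± 0.25, adjusted p 0.0153). The other windows of this rank were GGT6 (1.45), PRR15L (1.24), C9H1orf186 (1.22), TSTD1 (1.11) and the SNARE gene VAMP8 (1.11), beside OCLN. A value of 7.5 CPM in E28 DZ stands for 2 counts, so the E28 values of single windows carry little weight.

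The largest falls shared by all 6 libraries were in TNFAIP6, which codes for a secreted hyaluronan-binding protein (−1.13 ± 0.28, adjusted p 0.0219), M1AP (−0.84 ± 0.21, adjusted p 0.0267), VSTM4 (−0.64 ± 0.13, adjusted p 0.00569), OLFM4 (−0.62 ± 0.13, adjusted p 0.00755) and VASH1, a tubulin carboxypeptidase gene (−0.58 ± 0.13, adjusted p 0.0131). TNFAIP6 had 4.09, 1.45, 5.07, 6.82, 17.8 and 7.5 CPM in members and 5.45, 5.06, 15.6, 19.9, 24.9 and 23.0 CPM in the rest. Its level in the rest was higher at later stages, and members stayed below it. Called peaks covered 1630, 1091, 2527, 3133, 2605 and 2589 bp of the TNFAIP6 window in the library order above. OLFM4 lost its fall when 2 kb upstream alone was counted, with a log2 fold change of 0.13 and an adjusted p of 0.987.

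The number of calls moved with single libraries. Without E18 DZ 39 windows passed, without E18 ZZ 68, without E21 ZZ 136 and without E28 DZ 481, against 278 over all 6 libraries; without both E28 libraries, an alternative chosen after seeing the data, 543 passed. DESeq2 called 155 windows, and 82 of the 159 that rose and 55 of the 119 that fell passed there too, all in the same direction. Among cells within the interquartile range of member counts, the 158 rising windows that could be tested and the 119 falling windows kept their direction with medians of 0.55 and −0.42, against 0.68 and −0.41 before, and 1 window passed. With 2 kb upstream alone 125 of 127 rising and 69 of 75 falling windows that could be tested kept their direction, and 53 and 6 passed.

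The difference between members and rest was next compared across stages. Junction windows had medians of 0.33, 0.50 and 0.38 at E18, E21 and E28, the transcription factor list 0.41, 0.55 and 0.47, and the mesenchyme list −0.18, −0.18 and −0.24. The medians of the junction, transcription factor and mesenchyme lists thus had the same sign at each stage. Those of some other lists did not. The nephric list had 0.14, 0.10 and −0.22 and the neural progenitor list −0.22, −0.01 and 0.47. Within E18 alone, 14 windows rose (0.0644%), among them OCLN, OVOL1 and SPINT1, and 11 fell (0.0506%). Within E21 alone 36 rose (0.166%), among them SPINT1 and WNT3, and 12 fell (0.0552%). At E28, with 28 and 21 members, 4 rose, none of them listed, and 4 fell (0.0184% each). No window had a member difference that changed between E18 and E28 (0 of 21725 by edgeR, 1508 at an unadjusted p under 0.05, 1 by DESeq2). None differed between breeds either (0 by edgeR, 265 at an unadjusted p under 0.05, 0 by DESeq2), and a p that misses the threshold does not show that the differences were equal.

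Members were then grouped among themselves by clustering on 68239 regions outside 100 kb of every listed gene. The groups are a description with no test, since every gene of the clustered cells counts as used. Values are log2 of the cluster's counts over those expected from the rest of the same libraries, with 5 counts added to both. Of 5 clusters, 1 carried the epithelial genes, and it is called epithelial-like because its junction median was at least 0.4, a limit set after seeing the data. It held 493 members (35.2%), and the other 906 members lay in clusters with junction medians of −0.09 to 0.17. The share is tied to the clustering, with 52.4% at 0.5 times the resolution and 42.7% when neighbours were taken over all libraries together. List values below leave out windows within 100 kb of a marker. Counts of windows above the rest are given without the share over all gene windows, so they only describe the lists.

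In the epithelial-like cluster 23 of 24 windows of the junction list, which named the cluster, were above the rest, with a median of 0.74. So were 12 of 12 transcription and splicing factor windows and 9 of 9 protease windows, with medians of 0.81 and 0.93. OCLN had 77.9 CPM against 18.1 CPM expected (log2 2.06), GRB7 71.6 against 15.4 (2.16), SPINT2 52.9 against 13.6 (1.90) and OVOL1 82.4 against 25.4 (1.67). The leading windows of the cluster also included C9H1orf116 (2.17), C6H1orf210 (2.17), ILDR1, a protein of tricellular junctions (2.14), ZFP42 (2.10), CNKSR1 (2.02), PRR15L (2.02) and FAM83C (1.95). VIM stood at 35.7 against 92.6 CPM (−1.36), and the mesenchyme and myogenic lists had medians of −0.39 and −0.48.

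By library the epithelial-like members numbered 238, 190, 34, 15, 11 and 5, in the order used above, which is 2.12, 1.89, 0.366, 0.160, 0.117 and 0.0529% of kept cells. Their share of the members was 31.3 to 39.3% in the libraries other than E28 DZ in this clustering, which balanced neighbours over libraries. In the same libraries it was 41.7 to 54.0% at 0.5 times the resolution. With neighbours over all libraries together it was 45.8 and 43.5% at E18, 33.0 and 29.2% at E21 (ZZ and DZ) and 42.9% in E28 ZZ. In E28 DZ the share was 23.8% in the main clustering and 57.1% at 0.5 times the resolution. There it was 19.05% at 2 times and 0 with neighbours over all libraries together. OCLN reached 88.0, 80.4, 43.9, 31.3 and 28.1 CPM in these cells from E18 ZZ to E28 ZZ, and OVOL1 97.1, 75.5, 50.2, 62.7 and 63.2 CPM. In E28 DZ the 5 cells had no count of OCLN, SPINT2 or OVOL1 and 4 counts of TP63, so the name cannot be checked there. These members met the rule by a wider margin, with a median of 4.14 times the mean share against 3.56 times in the other clusters. At least 5 marker windows were found in 70.8% of them, against 51.9%. The rule used these values, so they are a description and no support for the name.

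In the other clusters the 5 epithelial lists had medians of −0.13 to 0.32. In cluster 1, 15 of 24 junction and 5 of 5 keratin windows were above the rest, in cluster 2, 10 of 12 factor, 13 of 17 receptor and 7 of 9 protease windows, and in cluster 3, 16 of 24 junction windows. Such counts were not limited to epithelial lists. Cluster 2 also had 8 of 8 sclerotome and 9 of 12 myogenic windows above the rest, and 2 of 8 neuron windows. In cluster 1 (350 cells) OCLN stood at 10.2 against 18.4 CPM (−0.79) and OVOL1 at 17.8 against 26.1 CPM (−0.53). The cardiac list had a median of 0.29 over 5 windows. In cluster 2 (288 cells) the 12 lists plotted for the clusters had medians of −0.16 to 0.20. In cluster 3 (142 cells) the neural progenitor list had a median of 0.46, with DBX1 at 37.2 against 14.6 CPM (1.202) and PAX6 at 226 against 132.9 CPM (0.75). In cluster 4 (126 cells) all 12 myogenic windows were above the rest, with a median of 0.49 and MYF5 at 61.7 against 22.8 CPM (1.32).

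**Figure D4:**
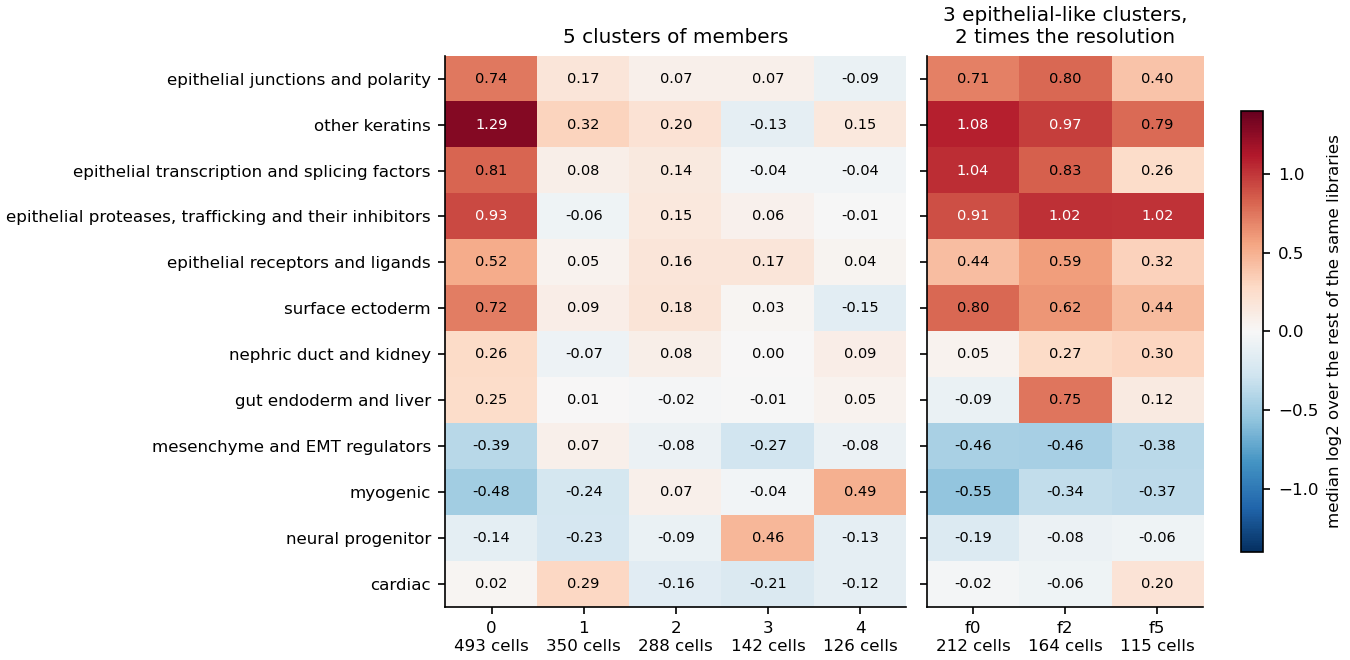
Median log2 over the rest of the same libraries for 12 gene lists (without windows within 100 kb of a marker) in the 5 clusters of members (left) and in the 3 epithelial-like clusters of a finer clustering (right, named by their number with an f); colours run from blue (below the rest) to red (above it). Cluster 0 carries the epithelial lists, cluster 3 the neural progenitor list (0.46) and cluster 4 the myogenic list (0.49); f2 stands out by the gut and liver list (0.75).

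At a resolution of 1.6 in place of 0.8, the epithelial-like members fell into 3 clusters with different leading genes, 491 cells in all, and 95.7% of the cells of the single cluster were among them. The first, of 212 cells, was high in genes of the epidermis: TP63 had 114.8 CPM against 33.5 CPM expected (1.73) and WNT6 129.6 against 51.5 CPM (1.30). Its leading windows included CST6, an epidermal protease inhibitor (2.14). The surface ectoderm list had a median of 0.80 with 10 of 10 windows above the rest, and the gut and liver list −0.09.

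The second, of 164 cells, was high in genes of gut and liver epithelium. Its leading windows included C9H1orf116 (2.33), SPINT2 (2.16) and GRB7 (2.12). The gut and liver list had a median of 0.75 and 12 of 14 windows above the rest, among them FOXA2 (1.11), CDX2 (1.05), PDX1 (0.90), FOXA1 (0.87) and HNF4A (0.77). SHH, which gut endoderm secretes, had 137.1 against 54.8 CPM (1.28), and VIL1 (villin of microvilli) 24.9 against 10.0 CPM (1.12). Other lists were above the rest here too: the surface ectoderm list had a median of 0.62 with 10 of 10 windows above, TP63 among them (0.998), and the notochord list, which shares FOXA2 and SHH, 0.66 with 4 of 4 windows.

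The last, of 115 cells, came almost entirely from E18, with 84 cells in E18 ZZ, 26 in E18 DZ and 5 in the other 4 libraries together. PAX2, a factor of the nephric duct, had 404.4 CPM against 175.7 CPM expected (1.19), WNT9B, a ligand of that duct, 48.4 against 15.2 CPM (1.49) and EMX2 94.4 against 44.0 CPM (1.05). Its leading windows were those of KCNJ1, a potassium channel of the kidney tubule (2.49), and MCCD1 (2.48), and it also held CDH16, the kidney cadherin (2.10). TP63 stood at 26.7 against 34.9 CPM (−0.35), while the surface ectoderm list had a median of 0.44 with 7 of 10 windows above the rest. The nephric list as a whole had a median of 0.30 with 8 of 11 windows above the rest. That median was close to the 0.27 of the second cluster and to the 0.25 and 0.24 of 2 finer clusters that were not epithelial-like, so the list does not set this cluster apart. By library the first 2 clusters held 83, 85, 27, 11, 6 and 0 and 72, 76, 6, 4, 3 and 3 cells, so all 3 were mostly of E18.

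Finally, single regions were compared, for 78233 merged peak regions that had a peak in all 6 libraries and lay outside 100 kb of the markers. In members 144 regions rose (0.184%) and 157 fell (0.201%). DESeq2 called 287 and 87, edgeR with DESeq2 size factors 369 and 258, at least 5 marker windows gave 88 and 197, and without E18 DZ or E18 ZZ 17 and 25 regions passed in all. The median log2 fold change of all regions was −0.16, against which single values are read. Regions that rose had a median GC content of 55.2%, against 46.7% in those that fell and 51.7% in all, and 39.6% overlapped an exon, against 19.7% and 31.7%. The largest rise shared by all libraries was a region that overlaps an exon of ETS2 (chr13:202477771-202478600), followed by one in an intergenic stretch with IL1B as the nearest start (chr3:43683589-43684511). Further down came one in an intron of DLGAP4 with MYL9 as the nearest start (chr17:39760658-39761381).

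The central 300 bases of these 3 regions are printed from the plus strand of Sscrofa11.1 because each holds the E-box CAGGTG, in capitals, read as CAGGTG or as its complement CACCTG. The 300 bases in ETS2 lie in the intron that follows the exon. The ETS2 and IL1B stretches hold the E-box at 2 places, the MYL9 stretch at 1.
ETS2, chr13:202478036-202478335: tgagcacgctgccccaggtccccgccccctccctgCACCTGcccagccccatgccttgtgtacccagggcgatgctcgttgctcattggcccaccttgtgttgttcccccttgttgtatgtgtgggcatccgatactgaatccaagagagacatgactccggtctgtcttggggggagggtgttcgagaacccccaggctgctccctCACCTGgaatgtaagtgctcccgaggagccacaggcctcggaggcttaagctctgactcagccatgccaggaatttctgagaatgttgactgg
IL1B, chr3:43683900-43684199: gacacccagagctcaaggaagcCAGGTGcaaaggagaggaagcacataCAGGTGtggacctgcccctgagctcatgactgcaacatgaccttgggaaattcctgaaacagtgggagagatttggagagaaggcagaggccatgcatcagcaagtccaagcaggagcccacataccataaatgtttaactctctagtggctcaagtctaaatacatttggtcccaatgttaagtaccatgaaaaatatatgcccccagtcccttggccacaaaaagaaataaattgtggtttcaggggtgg
MYL9, chr17:39760870-39761169: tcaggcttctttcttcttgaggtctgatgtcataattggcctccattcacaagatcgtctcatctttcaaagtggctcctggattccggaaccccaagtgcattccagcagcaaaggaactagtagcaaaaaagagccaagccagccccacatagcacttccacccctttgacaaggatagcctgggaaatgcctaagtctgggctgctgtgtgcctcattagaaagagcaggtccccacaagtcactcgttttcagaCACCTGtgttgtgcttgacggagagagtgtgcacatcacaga

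The ETS2 region had 10.9, 12.7, 16.9, 13.6, 23.8 and 7.5 CPM in members and 2.51, 2.504, 1.48, 2.26, 2.03 and 2.31 CPM in the rest, in the library order above. Members lay above the rest in each library, a condition for being named, with a log2 fold change of 2.51 ± 0.38 and an adjusted p of 1.66e-06. The IL1B region had 6.54, 6.94, 20.3, 17.1, 50.5 and 7.5 CPM in members and 2.19, 2.45, 2.31, 1.48, 2.21 and 2.24 CPM in the rest (2.49 ± 0.39, adjusted p 3.61e-06). In the rest both regions stayed between 1.48 and 2.51 CPM at all stages. The MYL9 region had a log2 fold change of 2.05 ± 0.44 with an adjusted p of 0.00524.

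A region in an intron of THADA, 149717 bases from the start of ZFP36L2 (chr3:97049838-97051520), rose by 2.06, and a distal region nearest to SLC9A9 (chr13:84721850-84722791) by 1.83; neither holds the E-box in its central 300 bases. The largest falls were a distal region nearest to PTBP2 (chr4:121164982-121166785, −1.85 ± 0.39, adjusted p 0.00387), a region in an intron of HERC1 nearest to FBXL22 (chr1:108400922-108403197, −1.77 ± 0.36, adjusted p 0.00244) and a region at an exon of IGF2R, the receptor that clears insulin-like growth factor II (chr1:7419308-7421250, −1.72 ± 0.42, adjusted p 0.0197). Among these falls only the IGF2R region holds the E-box in its central 300 bases. In members the PTBP2 region had 2.10, 2.17, 3.38, 0, 0 and 0 CPM, against 4.92, 4.91, 11.2, 12.7, 20.1 and 13.9 CPM in the rest. In the rest its level was thus higher at E21 and E28 than at E18, with peaks called separately in each library. The 3 member profiles at 0 allow up to 5.12, 8.91 and 11.2 CPM, so no course over the stages can be read for members.

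The E-box CAGGTG is the core bound by ZEB and SNAIL repressors and by some helix-loop-helix factors. It was found on either strand in the central 300 bases of 76 of 144 regions that rose (52.8%, exact 95% interval 44.3 to 61.2%), of 26 of 157 that fell (16.6%, 11.11 to 23.3%) and of 18170 of all 78233 regions (23.2%). Among regions with a GC content of 48.7 to 61.5%, the quartiles of those that rose, the shares were 51.4, 22.03 and 27.2%. In exons and promoters 54.2% of regions that rose held it and in introns and distal stretches 51.8%, against 25.5 and 22.1% of all such regions. Over 10 equal groups of regions of at least 10 CPM, ordered by log2 fold change, the share went from 17.2% in the lowest group to 35.9% in the highest. Over 10 such groups of all tested regions, with no CPM limit, it went from 16.1 to 31.8%.

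**Figure D5:**
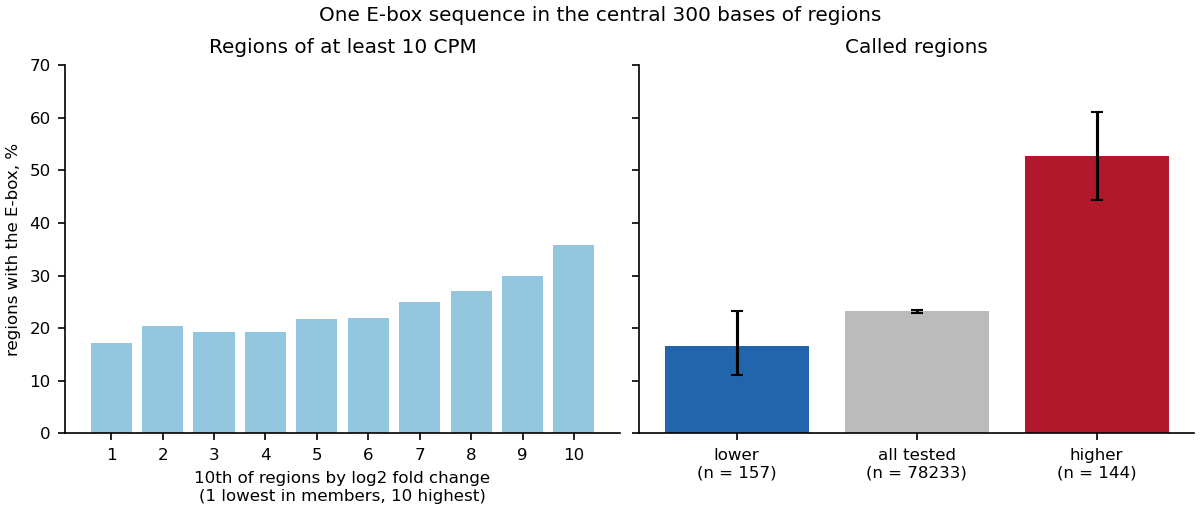
Share of regions with CAGGTG or CACCTG in the central 300 bases: left, 10 equal groups of regions of at least 10 CPM ordered by log2 fold change, members minus rest; right, regions that fell, all tested regions and regions that rose, with exact 95% binomial intervals. The share runs from 17.2 to 35.9% on the left and is 16.6, 23.2 and 52.8% on the right.

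Another 10 letter strings were searched on both strands of the same bases. AACNNGTT, the core of Grainyhead sites, was present in 10.4% of regions that rose, 3.18% of those that fell and 3.93% of all. Over the 10 groups of regions of at least 10 CPM its share had no such course, with 3.82% in the lowest, 4.52% in the highest and 2.26 to 3.58% between. TGANTCA, the AP-1 site, was in 14.6, 8.92 and 9.30%, GGAATG of TEAD factors in 22.9, 14.6 and 18.3%, and TGTTTAC of FOX factors in 4.86, 1.91 and 3.65%. The other E-box, CAGCTG, which myogenic factors prefer, was in 26.4% of regions that rose, 31.8% of those that fell and 24.0% of all. Unlike that of CAGGTG, its share was highest in the regions that fell, but this order depended on the element. It held in introns and distal stretches, with 24.7, 33.6 and 25.5%. In exons and promoters the share was highest in regions that rose, with 17 of 59 (28.8%). There 8 of 32 regions that fell and 21.1% of all held CAGCTG. GCCNNNGGC of AP-2 had 15.3, 7.64 and 17.1%, TGTGGTT of RUNX 3.47, 3.18 and 5.40%, and ACAAAG of SOX 22.2, 22.3 and 20.5%. AACCGGTT, which lies within AACNNGTT, and CCGGAAGT of ETS factors were in no region that rose or fell, which allows shares of up to 2.08 and 1.91%, and in 0.0780 and 1.01% of all. A string is a description of the letters, not a bound site.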

How the data were processed

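Chromatin accessibility was measured by single-cell ATAC-seq (10x Genomics) in 6 libraries of pig somites and myotomes. The authors aligned reads to Sscrofa11.1, called cells and called peaks separately in each library with Cell Ranger ATAC; the submitters' processing notes also name Seurat 3.1.1 and Signac 0.2.2. The values as deposited are raw Tn5 cut-site counts by peak and barcode that had not been normalized. Outside a library's own peaks there are no counts, so what was called limits every sum. Barcodes with 2000 to 30000 counts were kept. No doublet caller was run, and other quality filters of the study were not used here.

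Gene windows (gene body plus 2 kb upstream, 27785 RefSeq genes of Sscrofa11.1) received the counts of every overlapping peak. Counts of members and of the rest were summed per library, and the 12 profiles were tested with the edgeR quasi-likelihood test (edgeR 4.0.16, R 4.3.3, TMM, filterByExpr, library as a block, Benjamini-Hochberg adjusted p under 0.05). The block pairs profiles of the same library by design. Interactions with stage and breed were added to the same model. DESeq2 1.42.0 was the other tool. Standard errors were derived from the log2 fold change and the F statistic. The fits were run on simulated counts with the same fixed dispersion for every window, which does not show how the p-values behave on these data. Members held 8556433, 6912227, 1183452, 586088, 336704 and 266714 counts in the libraries from E18 ZZ to E28 DZ, so a count of 0 (3 counts allowed) permits up to 0.351, 0.434, 2.53, 5.12, 8.91 and 11.2 CPM. Each stage and breed has 1 library.

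Members were clustered on binary accessibility by term frequency and inverse document frequency, 20 latent semantic components (scikit-learn 1.9.0; the first, with a Pearson correlation of 0.982 with log depth across cells, was dropped), 5 nearest neighbours per library and Leiden clustering (leidenalg 0.10.2, resolution 0.8). The members, the 20 other gene lists (214 listed genes with the markers, 202 in the annotation) and the tests were chosen with earlier results of these data known, and the 12 letter strings after the files had been examined. Named by rule were, per list, the called windows with the largest change, and over all windows the 10 largest rises and 5 largest falls (regions 6 and 3) among genes with a symbol, at least 10 CPM in the higher profile and the same direction in all 6 libraries. For the regions named as rises, and for some windows such as GGT6 and C6H1orf210, only the member mean reached that CPM limit. Other listed windows and cluster genes were named after their values were seen. Symbols that occurred on several genes were dropped from the windows (439). Results on some genes and regions that the rule names, and on 1 of the letter strings, are not reported here.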

Additional observations from a re-analysis of the deposited data

Results flagged for a closer look

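For 44 items (the named windows and regions, without 2 that are not reported here) the 6 libraries' log2 ratios of members over rest, with 5 CPM added to both, were searched for a library far from the others, by Dixon's 95% limit on the gap to the nearest other library. Chance flags about 1 in 20 such groups, and 2 were flagged. The M1AP window had −2.68 in E21 DZ, with 0 CPM in members against 27.1 CPM in the rest, and −1.12 to −0.37 in the other libraries. The OVOL1 window had −1.41 in E28 DZ, with 0 against 8.24 CPM, and 0.63 to 1.68 elsewhere. The flagged libraries hold 48 and 21 members, so single counts move these values, and the cause was not tested.

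Among the barcodes left out for more than 30000 counts, 10 met the other limits of the rule, with 4 in E18 ZZ, 5 in E18 DZ and 1 in E21 DZ, of 2064 such barcodes (0.484%).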

How the results depend on the processing

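The number of windows that passed (278, 159 higher and 119 lower) was 155 with DESeq2 (92 and 63), 95 with 2 kb upstream alone (85 and 10), 1 among cells within the interquartile range of member counts, 0 with no replicate block (992 at an unadjusted p under 0.05 by edgeR) and 543 without both E28 libraries (297 and 246), an alternative chosen after seeing the data. Leaving out 1 library gave 39 to 481 windows, among them 39 when E18 DZ, 68 when E18 ZZ, 136 when E21 ZZ and 481 when E28 DZ was left out. For regions (301, 144 higher and 157 lower) the count was 627 with DESeq2 size factors (369 and 258), 2 within the interquartile range, 0 with no replicate block (5874 unadjusted by edgeR), 1147 without both E28 libraries (542 and 605), 374 with DESeq2 (287 and 87) and 17 to 900 without 1 library, among them 17, 25, 53 and 900 when the same libraries were left out. With at least 5 marker windows required the splits were 125 and 154 windows and 88 and 197 regions. The pairing is given by the design, since both profiles of a library come from the same cells' suspension.

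Windows whose member difference changed with stage numbered 0 by edgeR, 1 with DESeq2, 8 with at least 5 marker windows and 1 within the interquartile range. The share of members (2.38%) was 1.39% with at least 5 marker windows, 2.17% without members of another list, 2.21% over peaks common to all 6 libraries, 1.19% with the own library's share and 0.910% with 4 times the share. The share of rising regions with CAGGTG (52.8%) was 41.5% without both E28 libraries. Of 623 alternative values for 37 named windows, 430 kept direction and call, 192 kept direction and lost the call, and 1 turned (OLFM4, 0.13 with 2 kb upstream alone); of 144 values for 9 named regions, 104 kept both and 40 lost the call. The 493 epithelial-like members were 733 at a resolution of 0.4, 491 at 1.6 and 598 with neighbours over all libraries together (chosen after seeing the data), when E28 DZ had none. The 28 and 21 members at E28 limit what can be seen there. The causes of these changes were not tested.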

Other observations

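When neighbours were taken over all libraries together, an alternative chosen after seeing the data, the members fell into 9 clusters, and 1 of them, of 97 cells, held members of E21 and E28 alone (40 and 22 cells in ZZ and DZ at E21, 16 and 19 at E28) with a junction median of 0.04. In the same clustering 483 of the 493 epithelial-like members (97.97%) were again in clusters with a junction median of at least 0.4.

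The same kind of rule applied to lists of other cell types was met by 0.289% (mesenchyme) to 1.62% (neural progenitors) of kept cells.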
